A study of Mus musculus with 4 samples.

Results

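Colonic PDGFRαhi fibroblasts (FB) that carry transcripts of *Thbd*, the gene of thrombomodulin (CD141), were chosen from the cells of the colonic lamina propria by their own counts of unique molecular identifiers (UMIs). A cell was kept when it had 500 or more detected genes and 1000 or more UMIs, of which mitochondrial genes made up 10% or less. It then had to hold at least 1 UMI of 3 or more of the 6 genes *Pdgfra*, *F3*, *Sox6*, *Foxl1*, *Bmp7* and *Tmem158*, which is called the gate here. Levels are given in CPM, the UMIs of a gene scaled to 1000000 UMIs of the cell or of the summed subset. A gated cell was Thbd+ when *Thbd* reached 500 CPM in that cell and *Cd9*, a tetraspanin gene, stayed under 1000 CPM. Of 4510 gated colonic cells, 1415 were Thbd+, with 388 of 937 in colon replicate 1 (colon 1) and 1027 of 3573 in colon replicate 2 (colon 2). The whole series held 34983 barcodes, of which 32216 passed the cell filter.

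The libraries came from untreated female C57BL6/Nrj mice, 8 to 10 weeks old, and each of 2 independent experiments used 3 mice. Small intestine and colon, both freed of the outer muscle layer, each gave 2 droplet libraries. The sort had kept live, integrin β1 (Itgb1) positive cells that lacked CD45, Ter119, CD31, BP3, EpCAM and L1CAM, that is, mesenchymal stromal cells (MSC). A 3′ or a 5′ kit was used, with no statement of which library had which. Nothing in the labels ties a replicate number to an experiment, so libraries and not experiments were the unit of testing. Where subsets of the same library were compared, p-values measure how alike the difference was in the libraries. Where Thbd+ cells of both intestines were compared, p-values measure the spread between 2 libraries per intestine. CD141 protein was not measured in these libraries.

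PDGFRαhi FB lie directly under the gut epithelium and are a source of bone morphogenetic proteins (BMPs), which drive epithelial cells out of the crypt to differentiate, and of WNT ligands. Fibroblasts deeper in the tissue make BMP antagonists and R-spondins, which keep BMP signals low and WNT signals high around the stem cells at the crypt base. Some subepithelial FB also carry α smooth muscle actin, and such cells have been called myofibroblasts. Thrombomodulin is a surface receptor that binds thrombin and turns it from a clotting enzyme into an activator of protein C, and F3, another gene of these cells, encodes tissue factor, which starts coagulation.

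Depth was 22076000 and 52269372 UMIs in colon 1 and colon 2, and 14341443 and 45640122 UMIs in small intestine replicates 1 and 2. Colon 1 held fewer and deeper cells than colon 2. The median Thbd+ cell had 9919 UMIs in colon 1 and 3675 UMIs in colon 2, against 11600 and 4661.5 UMIs in the other gated cells, so that Thbd+ cells were the shallower group in both libraries. The colon libraries shared 0 barcodes, whereas colon 2 shared 69 barcodes with small intestine 2 and colon 1 shared 8 with small intestine 1. Doublet calls covered 1.03% and 4.97% of the Thbd+ cells and 2.55% and 8.80% of the other gated cells.

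The 8 genes of the rule are described here without a test. *Thbd* stood at 1486 and 1028 CPM in Thbd+ cells of colon 1 and colon 2, and at 203 and 149 in the other gated cells. *Cd9* stood at 387 and 321 in Thbd+ cells and at 871 and 816 in the others. *Pdgfra*, the receptor that names these fibroblasts, was measured at 903 and 706 against 594 and 562. The levels of *F3* were 1179 and 628 in Thbd+ cells and 566 and 466 in the others. *Sox6*, a transcription factor gene, gave 162 and 374 against 31.1 and 123. *Bmp7*, a BMP ligand gene, gave 356 and 281 against 214 and 232, and *Tmem158*, a membrane protein gene, gave 1032 and 960 against 422 and 566. *Foxl1*, a forkhead factor gene used to mark telocytes, gave 90.5 and 74.2 against 62.5 and 72.5. The highest of the 6 gate genes relative to the other gated cells was *Sox6* in both libraries.

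The *Thbd* minimum cuts through a continuous range of levels. In colon 1 the Thbd+ cell nearest to it had 505 *Thbd* CPM and the nearest cell outside had 496. In colon 2 these were 500 and 499.6. Cells between 500 and 600 numbered 23 in colon 1 and 136 in colon 2, and those between 400 and 500 numbered 32 and 196. Few members rested on a single *Thbd* UMI, at 0.258% of the Thbd+ cells in colon 1 and 3.60% in colon 2.

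The label of these cells also names *Acta2* (α smooth muscle actin) and *Wif1* (a secreted WNT inhibitor), which the rule did not use. With each cell thinned to 2000 UMIs, which left out 4 and 63 Thbd+ cells, *Acta2* was found in 88.8% of Thbd+ cells of colon 1 (exact 95% binomial interval 85.2 to 91.8) and in 84.9% of those of colon 2 (82.4 to 87.1). The other gated cells gave 40.5% and 49.6%. In cells outside the gate with 4 or more markers of CD81+ FB (CD81+ FB-like), *Acta2* was found in 12.7% and 8.36%, taken here as the background level. *Wif1* was found in 16.4% (12.8 to 20.5) and 15.9% (13.6 to 18.3) of Thbd+ cells and in 2.37% and 5.35% of the other gated cells. Among CD81+ FB-like cells, 0 of 457 cells in colon 1, which allows a share of cells with a UMI of up to 0.656%, and 3 of 3408 in colon 2 had a *Wif1* UMI. That limit is on cells with a UMI at this depth, not on cells that express the gene. Without thinning, *Acta2* was found in 96.6% and 89.9% of Thbd+ cells and *Wif1* in 36.6% and 22.3%. *Acta2* thus marked most of these cells and *Wif1* a minority, at the depth of these libraries. Intervals and floors cover counting error only.

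To ask what sets Thbd+ cells apart, their summed counts were compared with those of all other gated colonic cells, with library as a block. Genes were called at an adjusted p under 0.05 (edgeR quasi-likelihood test, Benjamini-Hochberg) and an absolute log2 fold change over 1. Of 11786 genes tested, 199 were higher in Thbd+ cells (1.69%) and 595 lower (5.05%), in all 6.74%. Counts of listed genes for this comparison are to be read beside these shares. Leaving out the genes of the rule, 197 were higher and 594 lower. The plot of both libraries shows each gene's change in colon 1 beside that in colon 2. Since the calls were made on these libraries, their like signs there are no separate evidence. Where a library is left out below, its intestine keeps 1 library, so the spread behind the adjusted p-values comes from the other intestine. For the comparisons within colon, the small intestinal libraries were added to such fits. Calls kept or lost in them are therefore not a test of the spread within colon.

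**Figure D1:**
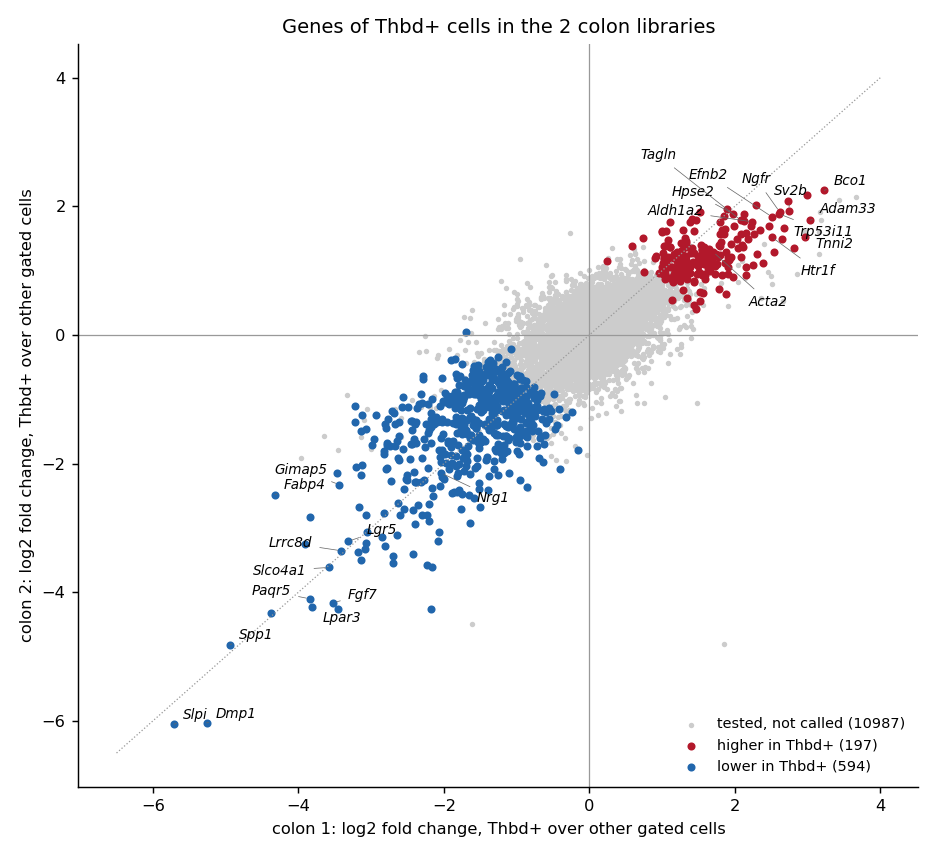
Log2 fold change of Thbd+ over other gated cells in colon 1 (x axis) and colon 2 (y axis) for each gene tested, without the genes of the rule; red points are called higher (197), blue points called lower (594), grey points not called (10987) and the dotted line marks equal change. Called genes fall mostly in the upper right or the lower left, and *Slpi*, *Dmp1* and *Spp1* lie farthest to the lower left.

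Genes of the contractile apparatus, most abundant in smooth muscle cells (SMC), moved in both directions. *Acta2* stood at 4547 and 2597 CPM in Thbd+ cells of colon 1 and colon 2 against 1400 and 1058 in the other gated cells, a log2 fold change of 1.41 (SE 0.11, adjusted p = 6.19e-05). *Tagln*, encoding the actin-binding protein transgelin, stood at 3268 and 2408 against 769 and 699 (log2 fold change 1.85, SE 0.10, adjusted p = 3.9e-07). *Myl9*, a myosin regulatory light chain gene, stood at 1442 and 1017 against 463 and 414 (1.38, SE 0.10, adjusted p = 8.38e-06). Each of these genes was higher in Thbd+ cells of both libraries than in the other gated cells of either. *Pdlim3*, encoding an actinin-associated protein of muscle, followed with 1410 and 608 against 317 and 203 (1.78, SE 0.15, adjusted p = 0.000655).

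Other contractile genes were lower. *Des*, the muscle intermediate filament desmin, was lower in Thbd+ cells, at 12.8 and 5.19 CPM against 39.7 and 15.8 (log2 fold change -1.71, adjusted p = 2.78e-05). *Cnn1* (calponin) was at 15.0 and 6.92 against 52.2 and 14.9 (-1.64, adjusted p = 8.69e-05). *Lmod1*, encoding an actin nucleator of smooth muscle, and *Myocd*, encoding the coactivator myocardin, were also lower (-1.38 and -1.67), and *Myocd* lost the call without colon 2 (adjusted p = 0.149). *Myh11*, the smooth muscle myosin heavy chain, gave 148 and 156 against 118 and 110 and was not called (0.33, adjusted p = 0.0376). Of 20 contractile genes tested, 4 were higher, 4 were lower and 12 were not called, with a median log2 fold change of 0.55 beside 0.01 over all genes tested. *Mylk* (0.98) and *Cnn2* (0.93) fell just below the fold required.

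Cells outside the gate with 4 or more of 8 SMC markers (SMC-like, 297 and 870 cells) had far more of both kinds. In them *Acta2* reached 18663 and 12792 CPM, *Myh11* 2938 and 3151, and *Des* 698 and 403. The 8 SMC markers were all detected in Thbd+ cells, and their summed level was 298 and 259 CPM in Thbd+ cells, against 442 and 245 in the other gated cells. With cells left out that had a UMI of 3 or more SMC markers or of 2 or more endothelial markers, *Acta2*, *Myl9* and *Pdlim3* were still called, whereas *Tagln* was not (log2 fold change 2.65, adjusted p = 0.0907). With each cell thinned to 2000 UMIs, at which a single *Thbd* UMI reaches the minimum, *Acta2*, *Myl9* and *Pdlim3* had log2 fold changes of 0.73, 0.82 and 0.86 and were no longer called.

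**Figure D2:**
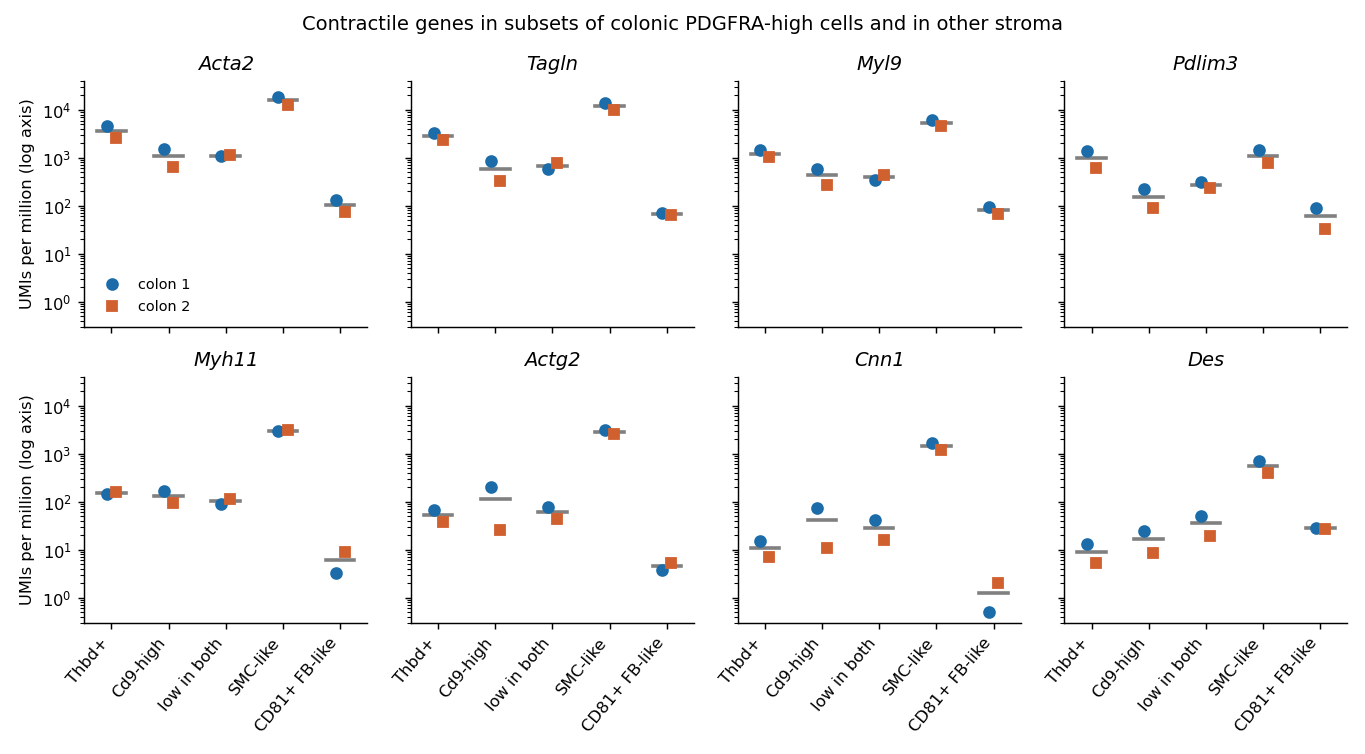
CPM (log axis) of 8 contractile genes in Thbd+, Cd9-high and low-in-both cells of the gate and in SMC-like and CD81+ FB-like cells outside it; circles are colon 1, squares colon 2 and grey bars their mean. *Acta2*, *Tagln*, *Myl9* and *Pdlim3* are higher in Thbd+ cells than in the other gated cells, whereas *Cnn1* and *Des* stay far below SMC-like cells (*Des* 12.8 and 5.19 against 698 and 403).

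The bases before the start of 3 of the 4 contractile genes that were higher are shown because many contractile genes carry a CArG box, the motif bound by serum response factor. The 250 bases before the annotated start are from RefSeq (GRCm38.p6), read 5′ to 3′ on the strand of the gene, with a CArG box in capitals. Only the exact form CCWWWWWWGG, where W is A or T, was searched. *Tagln* is the fourth gene. *Acta2* lies at chr19:34255374-34255623 (minus strand), *Pdlim3* at chr8:45885237-45885486 (plus strand) and *Myl9* at chr2:156775214-156775463 (plus strand).
Acta2: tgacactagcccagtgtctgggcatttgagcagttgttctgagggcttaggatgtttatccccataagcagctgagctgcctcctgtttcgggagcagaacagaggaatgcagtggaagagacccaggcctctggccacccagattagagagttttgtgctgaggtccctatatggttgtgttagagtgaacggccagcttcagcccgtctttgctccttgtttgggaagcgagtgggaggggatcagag
Pdlim3: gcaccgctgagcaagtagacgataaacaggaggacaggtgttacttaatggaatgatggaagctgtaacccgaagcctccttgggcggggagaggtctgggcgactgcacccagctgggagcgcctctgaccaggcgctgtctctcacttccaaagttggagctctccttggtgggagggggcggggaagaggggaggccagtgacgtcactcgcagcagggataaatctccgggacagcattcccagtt
Myl9: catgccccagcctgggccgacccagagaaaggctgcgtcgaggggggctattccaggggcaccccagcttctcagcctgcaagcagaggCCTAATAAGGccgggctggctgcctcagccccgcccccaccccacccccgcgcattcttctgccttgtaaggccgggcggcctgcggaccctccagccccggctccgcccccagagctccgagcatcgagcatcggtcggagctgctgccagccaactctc
The *Myl9* window holds 1 CArG box of this exact form, whose first base lies 161 bases before the start, and the windows of *Acta2* and *Pdlim3* hold 0. Sites that differ from it by a base, such as ccctatatgg and ccttgtttgg in the *Acta2* window, were not counted. A count of 0 therefore does not mean that serum response factor has no site there. A CArG box of the exact form, searched on both strands, was found in 2 of 17 promoters of the contractile list (11.8%, those of *Myl9* and *Cnn2*) and in 482 of 32851 promoters of the table (1.47%). A match describes letters in the window and is not a bound site.

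Of 8 BMP ligands tested, 0 were called higher and 1 lower in Thbd+ cells, the low gene *Gdf10* (median log2 fold change 0.05). *Bmp4* gave 1080 and 997 CPM in Thbd+ cells against 782 and 761, and *Bmp5* gave 656 and 552 against 391 and 408, with log2 fold changes of 0.34 and 0.50 that stayed below the fold required. *Bmp3*, a BMP family member that opposes other BMPs in some settings, gave 169 and 186 against 19.6 and 53.9. That is a log2 fold change of 2.26 with a wide SE of 0.45, and it did not pass the test (adjusted p = 0.121). *Bmp2* gave 714 and 512 against 818 and 792 (-0.50).

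Extracellular BMP antagonists were split. *Chrd* (chordin) was higher at 48.0 and 39.8 CPM against 13.04 and 12.70 (log2 fold change 1.66, SE 0.14, adjusted p = 7.21e-06). *Nbl1*, a DAN family antagonist, was higher at 3619 and 2314 against 1037 and 981 (1.43, SE 0.16, adjusted p = 0.00431). *Bmper*, encoding an extracellular BMP-binding protein, was lower (-3.10, adjusted p = 0.000997) and near the limit of detection. *Grem1* (gremlin 1) gave 14.0 and 19.5 against 164 and 70.0, which did not pass the test (-2.78, adjusted p = 0.111). Among 8 antagonists tested, 2 were higher and 1 lower.

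Of WNT ligands and their modulators, more were called lower than higher. *Wnt5b* gave 49.7 and 40.8 CPM in Thbd+ cells against 93.4 and 92.3 (log2 fold change -1.13, adjusted p = 2.73e-05), and *Wnt2* and *Wnt6* were also lower (-1.59 and -1.17). *Wnt2* (adjusted p = 0.0998 and 0.0871) and *Wnt6* (0.063 and 0.597) lost the call without colon 1 and without colon 2, and *Wnt5b* stood at -0.999 without colon 2. *Wnt5a*, a non-canonical ligand, gave 263 and 253 against 184 and 266 (0.13, adjusted p = 0.669). Of 6 WNT ligands tested, 0 were higher and 3 lower. The R-spondin genes *Rspo1* and *Rspo3*, whose products amplify WNT signals at stem cells, were lower (-2.65 and -2.06), with *Rspo3* at 4.18 and 1.98 against 18.0 and 6.67. When at least 2 *Thbd* UMIs were required in place of the level, *Rspo3* had a log2 fold change of 0.047. *Lef1*, a WNT-responsive transcription factor gene, was lower at 1.72 and 1.48 against 29.0 and 46.5 (-4.63, adjusted p = 2.09e-07). The secreted frizzled-related genes *Sfrp2*, *Sfrp4* and *Frzb* were lower as well (-2.90, -2.69 and -2.68), although *Sfrp4* (adjusted p = 0.0696) and *Frzb* (0.184) lost the call without colon 1.

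*Dkk2*, a secreted inhibitor of the WNT co-receptor, was the 1 of 14 R-spondins and WNT modulators that was higher, at 9.10 and 11.6 CPM against 1.06 and 2.12 (log2 fold change 2.55, SE 0.32, adjusted p = 0.00014), while 7 were lower (median -1.88). *Wif1* gave 138 and 117 against 14.4 and 30.4. Both Thbd+ values lay above both other values, but the change differed between libraries (3.17 in colon 1 and 1.91 in colon 2) and did not pass the test (2.40, SE 0.44, adjusted p = 0.105).

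Epithelial growth factors were lower or not called. *Fgf7* (keratinocyte growth factor) gave 21.9 and 8.16 CPM in Thbd+ cells and 262 and 163 in the others (log2 fold change -3.95, SE 0.17, adjusted p = 1.78e-06). *Nrg1* (neuregulin 1), a ligand of ERBB receptors on epithelial cells, gave 66.2 and 99.1 against 276 and 441 (-2.20, SE 0.10, adjusted p = 1.06e-07). *Ereg* (epiregulin), another ERBB ligand, gave 271 and 263 against 469 and 743 (-1.23, adjusted p = 0.0262), and it lost the call without colon 2 (-0.88, adjusted p = 0.0582). Of 22 growth factors tested, 0 were higher and 8 lower (median -0.67), among them *Areg* (amphiregulin) and *Hgf* (hepatocyte growth factor), the latter at -0.81 without colon 1. *Gdnf*, a factor for enteric neurons, gave 21.6 and 67.2 against 7.73 and 41.6 and stayed below the fold required (0.82).

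**Figure D3:**
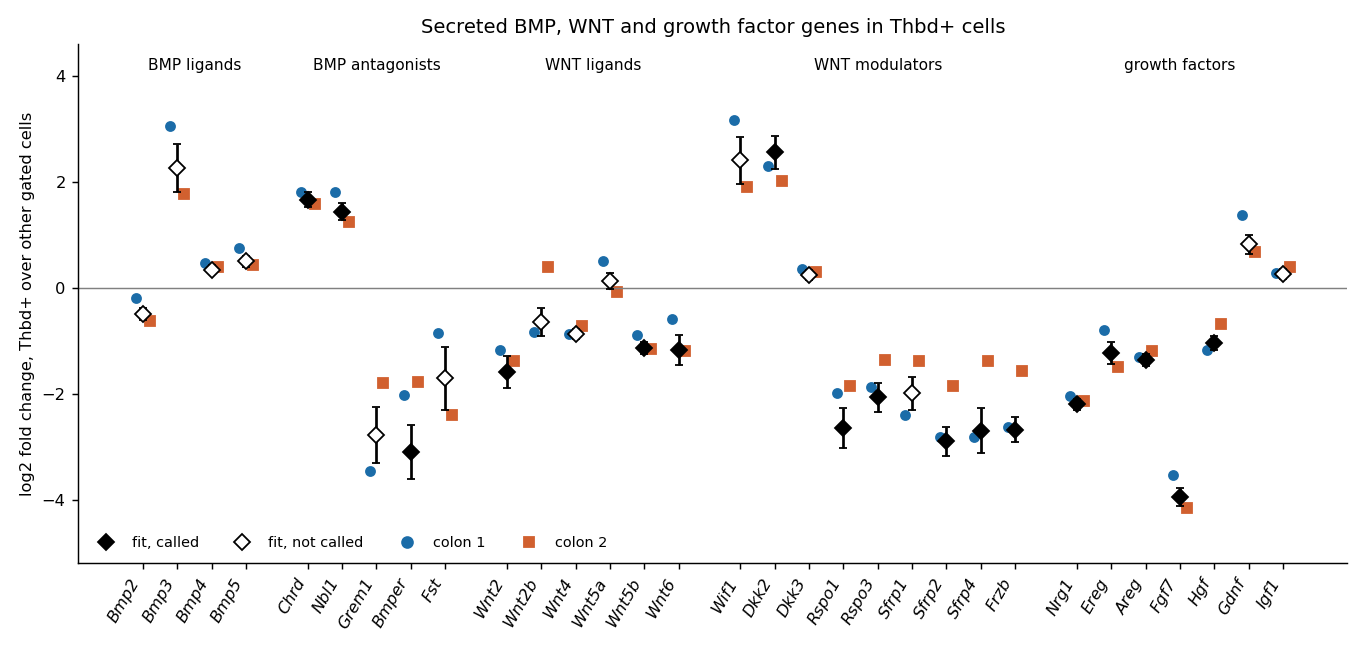
Log2 fold change of Thbd+ over other gated colonic cells for secreted regulators of BMP, WNT and growth factor signalling; diamonds with bars are the fit over both libraries ± SE (filled when called), circles colon 1 and squares colon 2. *Chrd*, *Nbl1* and *Dkk2* are called higher, *Fgf7* (-3.95) and *Nrg1* (-2.20) are called lower, and *Bmp3* and *Wif1* are above 0 in both libraries without being called.

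Since *Thbd* and *F3* belong to the coagulation system, the other genes of that system were read. *Plau* (urokinase), the enzyme that activates plasmin, was lower at 56.3 and 18.0 CPM against 263 and 140 (log2 fold change -2.61, adjusted p = 0.000179). *Plaur*, the urokinase receptor gene, was also lower (-1.38), and so was *Serpine2*, encoding an inhibitor of thrombin and urokinase, at 21.6 and 8.40 CPM against 90.2 and 26.3. *Serpine2* lost the call without colon 1 (adjusted p = 0.441) and without colon 2 (0.326). Urokinase and its receptor were thus lower together. *Procr*, the protein C receptor that works beside thrombomodulin, gave 1534 and 1190 against 588 and 761 and was not called (0.93, adjusted p = 0.13). *F2rl1*, a protease-activated receptor gene, was the 1 of 18 genes that was higher, at 8.36 and 2.47 against 2.27 and 1.41, while 5 were lower (median -0.24), *Serpinf1* and *Serping1* among them. Without colon 1, *F2rl1* was at 0.69 (adjusted p = 0.756), *Serping1* fell below the fold (-0.93) and *Serpinf1* lost the call (adjusted p = 0.101).

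Among genes that act on immune cells, *Cxcl12*, the ligand of CXCR4, was higher at 4702 and 1967 CPM against 2163 and 859 (log2 fold change 1.07, SE 0.08, adjusted p = 2.05e-06). It fell just short of the fold with a *Thbd* minimum of 1000 CPM (0.98) and also with cells thinned to 2000 UMIs (0.80). The other chemokine genes called were lower, among them *Ccl2* (a monocyte attractant; 21.6 and 37.8 against 121 and 107) and the decoy receptors *Ackr3* and *Ackr4*. *Ccl2* (adjusted p = 0.794 and 0.679) and *Ackr3* (0.16 and 0.161) lost the call without colon 1 and without colon 2. Of 16 genes of this list, 1 was higher and 4 lower (median -0.83). *Il1rl1*, encoding the IL-33 receptor ST2, was lower at 6.40 and 4.20 against 152 and 103 (-4.67, SE 0.15, adjusted p = 3.02e-09), and *Il33* itself was lower at 4.18 and 2.47 against 17.9 and 17.8 (-2.51). *Il11ra1*, an IL-11 receptor gene, was higher at 122 and 459 against 58.5 and 210, at the edge of the fold (1.01, and 0.97 without colon 2). Of 25 cytokine genes, 1 was higher and 3 were lower.

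Genes of prostaglandin synthesis moved in both directions. *Ptgis* (prostacyclin synthase) was higher at 222 and 213 CPM against 45.3 and 71.3 (log2 fold change 1.83, SE 0.20, adjusted p = 0.00439). *Ptgs2* (cyclooxygenase 2), which makes the precursor of all prostaglandins, was lower at 280 and 202 against 565 and 646 (-1.43, adjusted p = 0.00741), and so was the prostacyclin receptor gene *Ptgir*. No other gene of the 12 tested was called.

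Small leucine-rich proteoglycans and matricellular genes formed a list of 20 tested genes, of which 3 were higher and 4 lower (median -0.46). *Aspn* (asporin), which binds collagen and TGF-β, gave 996 and 1033 CPM in Thbd+ cells and 415 and 382 in the others (log2 fold change 1.26, SE 0.09, adjusted p = 1.56e-06). *Ogn* (osteoglycin) gave 2674 and 1957 against 1020 and 1007 (1.09), and *Omd* (osteomodulin) was higher at a low level (1.94). *Ogn* fell below the fold without colon 1 (0.85). *Tnc* (tenascin C), a matrix protein of remodelling tissue, was lower at 417 and 183 against 1062 and 506 (-1.49, adjusted p = 5.86e-07), as were *Spon1*, *Fbln1* and *Fbln2*. *Fbln1* (adjusted p = 0.924 and 0.855) and *Fbln2* (0.745 and 0.656) lost the call without colon 1 and without colon 2, and *Spon1* lost it without colon 1 (0.059). *Lama5*, the laminin α5 chain of epithelial basement membranes, was lower at 8.12 and 8.65 against 40.9 and 58.3 (-2.65, adjusted p = 5.89e-07). Of 17 basement membrane genes, *Hmcn2* was higher and *Lama5* and *Lama1* were lower. *Hmcn2* stood just under the fold without colon 2, and *Lama1* lost the call without colon 1 (adjusted p = 0.0638). Of 21 collagen chains only *Col6a4* and *Col6a5* were called, both lower, beside 5.05% of all genes tested called lower.

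In the TGF-β and YAP list, 2 of 16 genes were higher and 4 lower, beside 1.69% and 5.05% of all genes tested. *Amotl2*, a YAP target, was higher at 138 and 73.4 CPM against 48.7 and 32.9 (log2 fold change 1.25), and *Ltbp2*, a latent TGF-β binding protein family gene, was higher from 0 and 0.863 to 5.66 and 6.92. The BMP-induced inhibitors *Smad6* and *Smad7* and the BMP target *Id4* were lower, with *Smad6* at 8.12 and 10.6 against 29.1 and 28.2 (-1.69), and so was *Ltbp1* (-1.03). *Ltbp1* fell below the fold without colon 1 (-0.68), and *Id4* lost the call without colon 2 (adjusted p = 0.15). Of 11 hedgehog response genes only *Gas1* was called (lower), of 18 immediate early genes only *Ier3* (lower, and -0.93 without colon 2) and of 22 interferon response genes only *Ifit3* (higher). These counts lie near the share called over all genes tested (6.74%), so they are no result about these lists. Of 16 surface antigens used to sort stromal cells, *Cd24a* was higher and *Thy1* (CD90), *Cd81*, *Vcam1*, *Fgfr2*, *Cd34* and *Ly6c1* were lower. *Cd24a* lost the call without colon 1 (0.57, adjusted p = 0.139), and *Fgfr2* (adjusted p = 0.29 and 0.0604) and *Ly6c1* (0.76 and 0.753) lost it without colon 1 and without colon 2. A further pair of lists was taken from genes named for CD9lo CD141+ and CD9hi CD141- FB, chosen on these same samples and so not independent. Of the 7 genes for CD9lo CD141+ FB, 4 were higher and 0 lower, and of the 9 for CD9hi CD141- FB, 0 were higher and 7 lower.

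Next come the 10 called genes with the largest increases among those with at least 50 Thbd+ UMIs in each library. *Bco1*, whose enzyme cleaves β-carotene to retinal, had the largest of these increases, at 22.6 and 16.8 CPM against 1.52 and 2.75 (log2 fold change 2.98, SE 0.29, adjusted p = 7.48e-05). *Aldh1a2*, whose enzyme turns retinal into retinoic acid, was at 156 and 97.1 against 32.2 and 28.0 (1.94, SE 0.13, adjusted p = 7.69e-06). *Ngfr*, the p75 neurotrophin receptor, was at 30.3 and 13.1 against 4.09 and 2.75 (2.49). *Sv2b*, a synaptic vesicle glycoprotein gene, was at 31.0 and 30.9 against 3.79 and 7.37 (2.32), and *Htr1f*, a serotonin receptor gene, was at 28.8 and 13.8 against 4.25 and 4.16 (2.14). *Efnb2* (ephrin-B2), a membrane ligand of EPHB receptors, was at 126 and 145 against 21.2 and 39.8 (2.08, SE 0.18, adjusted p = 0.000717). The remaining genes were the metalloproteinase gene *Adam33* (2.29), *Trp53i11* (2.16), the troponin gene *Tnni2* (2.12) and the heparanase family gene *Hpse2* (2.10). Without colon 1 and without colon 2, *Adam33* stood at 1.82 and 3.63 and *Tnni2* at 1.56 and 3.61.

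The genes with the largest decreases were nearly undetected in Thbd+ cells. *Lgr5*, the R-spondin receptor best known from crypt stem cells, had 0 UMIs in the 1415 Thbd+ cells and 164 in the other gated cells, which is at least 22.9-fold lower against a floor of 3 counts over both libraries. *Slpi*, a secreted protease inhibitor gene, had 3 against 1799 UMIs, a ratio of 251 (95% counting interval 85.9 to 1220). *Fabp4*, a fatty acid binding protein gene, had 3 against 266 UMIs (ratio 37.2, 12.6 to 181), and *Gimap5* had 1 against 132 (ratio 55.3, 9.76 to 2202). The *Fabp4* change turned positive when at least 2 *Thbd* UMIs were required in place of the level. *Dmp1*, an acidic phosphoprotein gene of bone matrix, gave 0.492 and 0.989 CPM against 56.2 and 129 (log2 fold change -7.02), and *Spp1* (osteopontin) gave 0 and 2.97 against 29.7 and 111 (-5.66). *Lpar3*, a lysophosphatidic acid receptor gene, was lower at 0.984 and 0.247 against 26.8 and 22.5 (-5.37). The others named were *Slco4a1*, *Lrrc8d* and *Paqr5*.

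Markers of other cell types stood as follows beside these differences. Of 12 endothelial markers, 5 and 9 were detected in Thbd+ cells of colon 1 and colon 2, with *Cdh5* and *Kdr* at 0 in colon 1 and *Cldn5*, *Tie1* and *Ptprb* at 0 in both. Their summed level was 199 and 106 CPM in Thbd+ cells and 271 and 107 in the others. The 8 pericyte markers summed to 192 and 178 against 99.8 and 102, with the channel genes *Abcc9* and *Kcnj8* higher (1.75 and 1.19) and *Rgs5* and *Ndufa4l2* lower. The 8 markers of CD81+ FB summed to 1072 and 772 against 2226 and 1485. Of 5 plasma cell genes, 4 and 5 were detected, and they summed to 2.95 and 33.9 against 20.8 and 344, with *Igkc*, *Jchain* and *Igha* lower. The part of these markers, and of the gap in depth, in the results above was not tested.

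With no block for the library, edgeR called 0 genes at the same thresholds, with 823 at an unadjusted p under 0.05, whereas DESeq2 with the block called 530. Fits without a colon library kept a single colon library and took their spread from the small intestine, so their counts are not set beside these.

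Thbd+ cells were next set against 2 subsets of the other gated cells, which share the Thbd+ cells with the comparison above. A further subset, at or above both minima of *Thbd* and *Cd9* (40 and 111 cells), was part of the other gated cells. It was in the same fit but is not compared here. Cd9-high cells (159 and 704 cells) had *Cd9* at 1000 CPM or more and *Thbd* under 500. Against them 1038 of 11739 genes were called (8.84%), 414 higher (3.53%) and 624 lower (5.32%) in Thbd+ cells. *Sv2b* was at 31.0 and 30.9 CPM in Thbd+ cells against 1.51 and 2.72 in Cd9-high cells (log2 fold change 3.71, SE 0.36, adjusted p = 2.5e-06), and *Edn3* (endothelin 3), a peptide needed by enteric nerve precursors, was at 82.7 and 74.4 against 2.01 and 9.52 (3.57, adjusted p = 0.0449). *Tmem200a*, the phosphodiesterase gene *Pde1c* and *Tnni2* completed the genes with the largest increases. *Aldh1a2* was at 15.1 and 10.6 in Cd9-high cells (3.21) and *Cxcl12* had a log2 fold change of 2.13.

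*Lgr5* UMIs were most frequent in Cd9-high cells, at 27.2 and 21.8 CPM, so that Thbd+ cells were at least 63.9-fold lower. *Dmp1* (180 and 313) and *Slpi* (149 and 265) also stood highest in Cd9-high cells among the 3 subsets compared. *Nrg1* was at 461 and 723 there (log2 fold change -2.92, adjusted p = 2.7e-08), and *Il1rl1* at 396 and 196 (-5.82). Of 22 growth factors, 1 was higher in Thbd+ cells, *Gdnf* (1.15), and 11 were lower. *Acta2* was at 1537 and 652 in Cd9-high cells, below both Thbd+ values, but did not pass the test (1.68, adjusted p = 0.063). *Tagln*, at 851 and 332, did not pass either (2.25, adjusted p = 0.0744). Of 20 contractile genes *Pdlim3* (2.64) and *Mylk* were higher and *Cnn1* and *Lmod1* lower. The 8 SMC markers summed to 613 and 192 CPM in Cd9-high cells, a spread between libraries larger than in Thbd+ cells.

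Cells low in both genes (350 and 1731 cells) had *Thbd* under 500 and *Cd9* under 1000 CPM. Against them 745 of 11739 genes were called (6.35%), 157 higher (1.34%) and 588 lower (5.01%). *Bco1* (2.81), the phosphatase inhibitor gene *Ppp1r14c* (2.60), *Ngfr* (2.45), *Adam33* (2.26) and *Htr1f* (2.23) had the largest increases. *Grem1*, at 199 and 83.5 CPM in these cells, was lower in Thbd+ cells (log2 fold change -3.06, adjusted p = 0.0421), as were *Ackr4* (-3.77) and *Il1rl1* (-3.67). *Ccl2* (-2.47) and *Frzb* (-3.14) were lower too. *Chrd* (1.55), *Nbl1* (1.44), *Ptgis* (1.71) and *Pdlim3* (1.64) were higher. *Acta2*, at 1071 and 1160 CPM in cells low in both, was not called (1.47, adjusted p = 0.0969). In colon 2 these cells also carried *Igkc* at 401 CPM, against 22.0 in Thbd+ cells.

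Gene levels along the *Thbd* level are given as a description, since *Thbd* chose the cells. Gated cells with *Cd9* under 1000 CPM were binned at 0, above 0, 500, 1000 and 2000 *Thbd* CPM, with 70 to 903 cells a bin. In colon 1 *Acta2* went from 620 in cells with no *Thbd* UMI through 1248, 2957 and 5028 to 5700 in the highest bin. In colon 2 it went from 742 through 1565, 2386 and 2972 to 2684, so that the highest bin lay below the one before it. *Nrg1* went from 300 to 29.5 in colon 1 and from 480 to 75.9 in colon 2. *Fgf7* went from 133 to 5.26 in colon 1 and from 134 to 0 in colon 2. *Bmp3* went from 6.75 to 241 and from 40.0 to 313, and *Wif1* from 0.844 to 169 in colon 1, while in colon 2 *Wif1* peaked at 137 and was 75.9 in the highest bin.

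**Figure D4:**
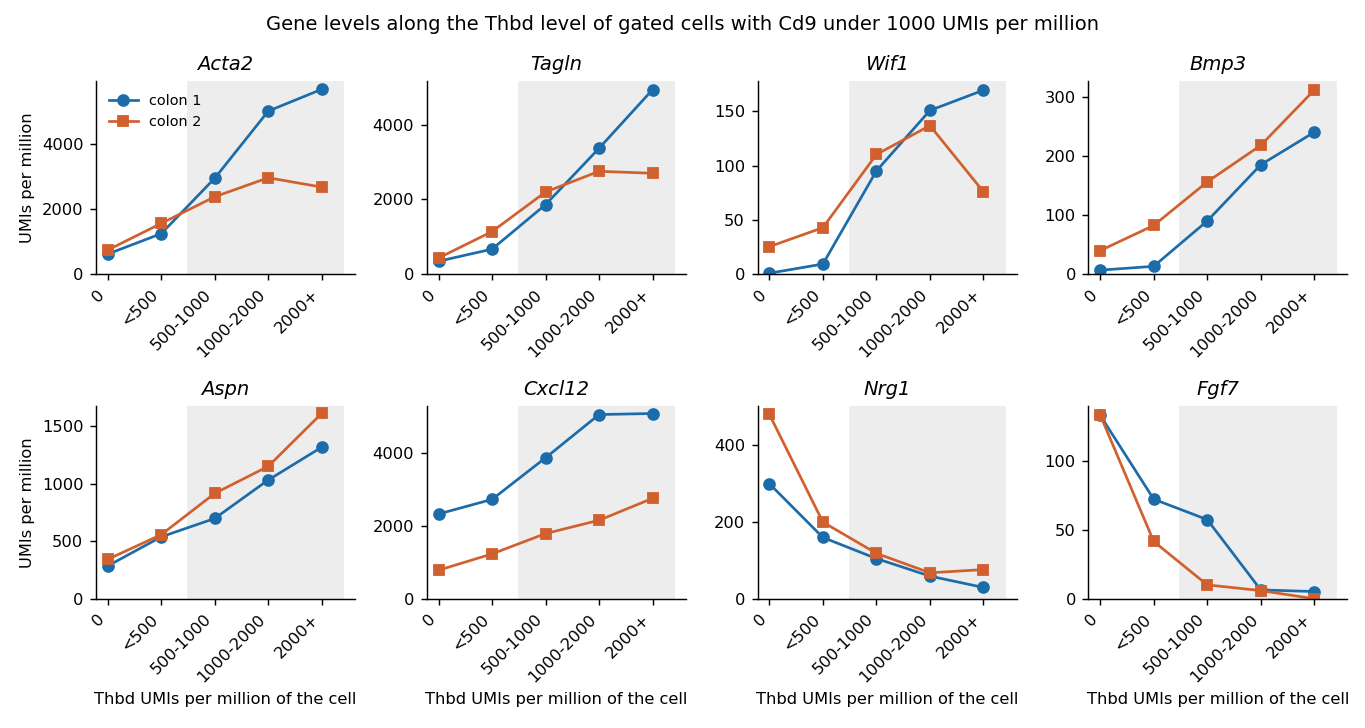
CPM of 8 genes (y axes start at 0) in 5 bins of the *Thbd* level of gated colonic cells with *Cd9* under 1000 CPM; circles are colon 1, squares colon 2 and the grey band marks the bins of Thbd+ cells. *Acta2*, *Tagln*, *Bmp3*, *Aspn* and *Cxcl12* stand higher in the grey band than in cells with no *Thbd* UMI, and *Nrg1* and *Fgf7* stand lower.

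Thbd+ cells also varied among themselves. Cells with a *Wif1* UMI after thinning to 2000 UMIs numbered 63 in colon 1 and 153 in colon 2. They held *Acta2* at 6071 and 3552 CPM, against 4017 and 2456 in the 321 and 811 Thbd+ cells without a *Wif1* UMI. Their *Tagln* was 5032 and 3105 against 2715 and 2200, and their *Bmp3* was 302 and 369 against 128 and 163. Their *Nrg1* was 15.9 and 26.1 against 87.2 and 110. *Bmp4* (1286 and 1180 against 1078 and 990) and *Cxcl12* (4897 and 1967 against 4632 and 2021) were closer. Thbd+ cells with no *Acta2* UMI (43 and 146 cells) had *Wif1* at 23.3 and 47.9, against 144 and 145 in those with one, and *Tagln* at 302 and 284 against 3447 and 2711. These splits are descriptions at a depth where a gene can be missed in a cell that expresses it.

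The gate was also applied to the small intestine to see which features of Thbd+ cells were shared. There 121 of 193 and 646 of 1358 gated cells were Thbd+, or 62.7% (exact 95% binomial interval 55.5 to 69.5) and 47.6% (44.9 to 50.3), against 41.4% (38.2 to 44.6) and 28.7% (27.3 to 30.3) in colon. The means were 55.1% ± 10.7 (SD, n = 2) and 35.1% ± 8.96 (SD, n = 2), and an exact two-sided permutation test gave p = 0.333, the smallest that 2 libraries against 2 allow. Only 1 and 10 gated cells were Cd9-high in small intestine, whereas colon had 159 and 704, so the cells that Thbd+ cells were compared with differed between the intestines.

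*Acta2* stood at 4886 and 2734 CPM in small intestine and 4547 and 2597 in colon, a log2 fold change of colon over small intestine of -0.01 (SE 0.42, adjusted p = 0.997). *Tagln* gave 3268 and 2408 in colon and 5673 and 3911 in small intestine (-0.67, adjusted p = 0.73). These tests do not show that the levels were equal. Of 10905 genes, 61 were called (0.559%) at a log2 fold change beyond 1.5 with no block, 13 higher (0.119%) and 48 lower (0.44%) in colon. Higher in colonic Thbd+ cells were the regional homeobox genes *Hoxa10* (79.5 and 64.8 against 0 and 0, at least 67.0-fold), *Hoxa11* and *Hoxa9*, with *Pitx1*, *Lgals3* (galectin 3) and *Postn* (periostin), the last at 2283 and 937 against 46.8 and 57.4 (5.02, adjusted p = 0.0379). Lower were *C7*, a complement gene (0.492 and 0.742 against 772 and 179), *Plcxd3*, *Hs3st6*, *Plbd1* and *Hoxb2*. *Smoc2*, a matricellular gene, was lower as well (-5.36, adjusted p = 0.0273), as were *Il33* (-3.95), *Ltbp1* (-2.33), *Abcc9* (-2.56) and *Trp53i11* (-2.55). This count was unstable, at 30 to 272 genes when a library was left out, with 30 without small intestine 1, 36 without small intestine 2, 270 without colon 1 and 272 without colon 2. *Hoxa9* (adjusted p = 0.0673 and 0.0955) and *Lgals3* (0.0673 and 0.0595) lost the call without small intestine 1 and without small intestine 2, and *Hoxa11* without small intestine 2 (0.0545).

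Whether the difference between Thbd+ and other gated cells itself differed between colon and small intestine was tested as an interaction, with library as a block. Of 11581 genes, 147 were called (1.27%), 63 with a more positive (0.544%) and 84 with a more negative (0.725%) effect in colon. *Aspn* was higher in colonic Thbd+ cells than in other gated colonic cells but stood at 145 and 254 CPM against 186 and 290 in small intestine (log2 fold change -0.31), a difference of effects of 1.56 (adjusted p = 3e-06). The effect of *Tagln* was 0.52 in small intestine, where Thbd+ cells had 5673 and 3911 CPM and the others 3319 and 3014, a difference of 1.32 (adjusted p = 0.00482). *Bco1* (44.1 and 30.2 against 34.7 and 22.1) and *Ngfr* had small intestinal effects of 0.35 and 0.23, and their differences of effects were 2.61 and 2.25. *Aldh1a2* was at 324 and 199 in small intestinal Thbd+ cells and at 272 and 171 in the others (0.18). The small intestinal effects of *Bco1*, *Ngfr* and *Aldh1a2* were thus at most 0.35. In small intestine 2 the median Thbd+ cell had 2270.5 UMIs, and 18.6% of Thbd+ cells rested on a single *Thbd* UMI. In small intestine 1 these were 9501 UMIs and 1.65%. The part of this depth in the small intestinal effects was not tested. *Tnc* and *Nrg1* had more negative effects in colon (-1.73 and -1.80), and small intestinal gated cells held little *Nrg1* (15.9 and 9.68 in Thbd+ cells, 9.47 and 17.7 in the others). For *Acta2* the difference was 0.85 and did not pass the test (adjusted p = 0.332).

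**Figure D5:**
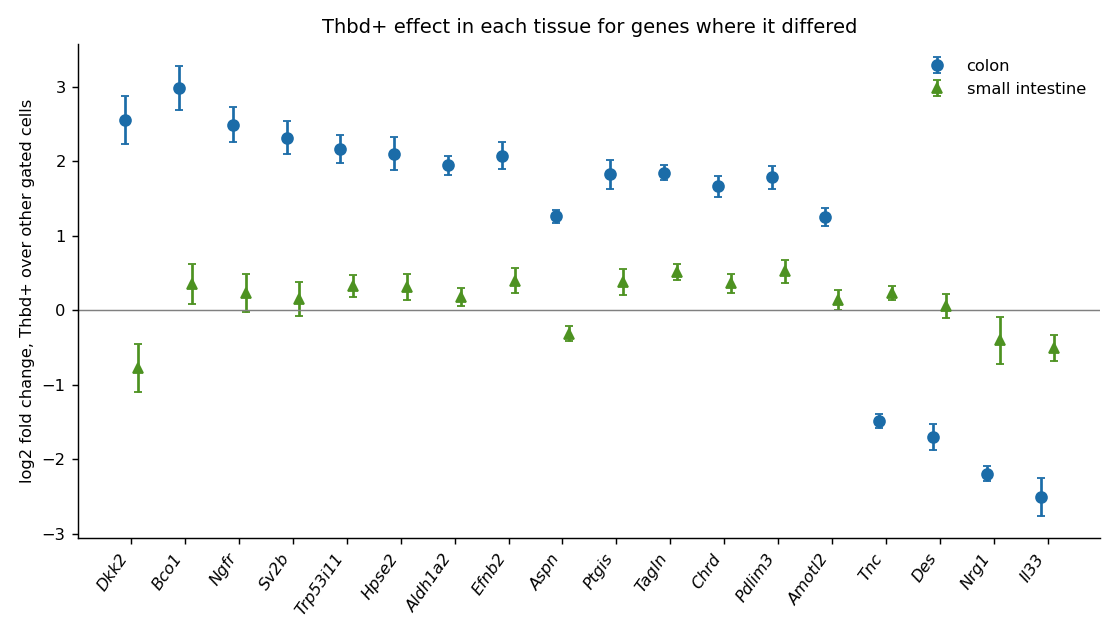
Log2 fold change of Thbd+ over other gated cells ± SE for 18 genes whose effect differed between intestines, with colon as circles and small intestine as triangles. Colonic effects lie away from 0 on either side (*Bco1* 2.98, *Nrg1* -2.20), and small intestinal effects lie nearer to 0 (0.35 and -0.41). The genes were picked from those called for such a difference, so a gap is no separate evidence. Genes with larger small intestinal effects, such as *Tfpi2* (-3.87) and *Tuba1c* (-3.59), are not shown.

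The count of genes whose effect differed fell to 9 without small intestine 1 and to 31 without small intestine 2, was 125 without colon 1 and 173 without colon 2, and was 0 with no block (254 at an unadjusted p under 0.05). Of the genes named here, *Aspn*, *Tagln* and *Tnc* were called whichever of the 4 libraries was left out, whereas *Bco1* (adjusted p = 0.117 and 0.162) and *Nrg1* (0.267 and 0.0506) lost the call without small intestine 1 and without small intestine 2. *Ngfr* (0.16) and *Aldh1a2* (0.0564) lost it without small intestine 1.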

How the data were processed

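The authors ran Cell Ranger on mm10, version 3.0.2 for replicate 1 and 3.1.0 for replicate 2 as the file headers state. They deposited unnormalized counts of UMIs for 28692 genes in each cell barcode. Total counts are given with the results. CPM values were computed here from these counts.

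Members and gene lists were chosen with earlier results of these data known. Counts were summed per library and subset and tested with edgeR 4.0.16 (filterByExpr, TMM, robust quasi-likelihood fit; R 4.3.3), with the library as a block, except between intestines. DESeq2 1.42.0 and other settings were alternatives. Shares of cells were computed after thinning to 2000 UMIs (Python 3.11.15). Doublets were called with scrublet in scanpy 1.11.5 and left out only as an alternative. Its automatic threshold called 1 of 15263 cells of small intestine 2, where the threshold of colon 2 (0.219) was used instead.

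Named genes were the 10 (5 in further comparisons) with the largest change per direction among called genes, with the same direction in both libraries and at least 50 UMIs in the higher subset of each, apart from the genes of the rule. Members of the lists were named too. Some genes were taken out of the lists and are not reported here. Immunoglobulin genes belong to families of near-identical copies, so that their counts are uncertain. Sequences are of RefSeq, GRCm38.p6. On simulated counts for Thbd+ against other gated cells (11715 genes), 80% of genes changed by a log2 fold change of 1 and 98% of those changed by 2 were recovered. For the difference of effects these were 40% and 88%, and between intestines 77% and 100%. Simulated libraries shared a single profile and a fixed spread, and only genes with enough counts were changed. These shares therefore do not measure recovery in the real libraries.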

Additional observations from a re-analysis of the deposited data

Results flagged for a closer look

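For 35 genes, the difference between Thbd+ and other gated cells itself differed between colon and small intestine, by the interaction test of edgeR (adjusted p under 0.05, difference of log2 effects beyond 1). They were genes with the largest changes, or list members also called against other gated cells in colon. The list members *Wnt4*, *Vegfa*, *Pla2g4a*, *Ptgs1* and *Isg15* were called for a difference of effects only and are not among them. Each value below is the colonic effect minus the small intestinal effect on the log2 scale. Small intestine had only 1 and 10 Cd9-high gated cells, so the cells compared with Thbd+ cells were not of the same makeup in both intestines, and the part of this in the differences was not tested. The part of the low depth of small intestine 2 was not tested either. Of the 35 genes, 4 were still called without small intestine 1 (*Aspn*, *Tagln*, *Tnc* and *Igkc*) and 8 without small intestine 2, against 27 without colon 1 and 30 without colon 2.

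Of the genes with the largest increases in colon, *Bco1* (2.61), *Ngfr* (2.25), *Sv2b* (2.15), *Trp53i11* (1.84), *Hpse2* (1.78), *Aldh1a2* (1.75) and *Efnb2* (1.67) had a more positive effect there. The same held for the secreted or matrix genes *Dkk2* (3.31), *Ltbp2* (3.01), *Aspn* (1.56) and *Chrd* (1.29), for *Ptgis* (1.43), *Ifit3* (1.47), *Abcc9* (1.27) and *Amotl2* (1.10), and for the contractile genes *Tagln* (1.32) and *Pdlim3* (1.25). *Tfpi2* (3.02) and *Tuba1c* (2.47) differed in another way, being lower in small intestinal Thbd+ cells by -3.87 and -3.59, and by less in colon (-0.85 and -1.12). Without small intestine 1 the differences were 1.36 (adjusted p = 0.527) for *Tfpi2* and 1.19 (adjusted p = 0.615) for *Tuba1c*, and *Tfpi2* also lost the call without colon 1 (adjusted p = 0.0862) and without colon 2 (0.147).

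More negative effects in colon were found for *Des* (-1.77), *Tnc* (-1.73), *Nrg1* (-1.80), *Il33* (-2.01), *Vcam1* (-1.33), *Lama5* (-3.20), *Col6a4* (-1.64) and *Col6a5* (-1.04). The largest values, for *Il1rl1* (-4.93), *Ano2* (-5.58), *2200002D01Rik* (-4.65), *Slpi* (-7.88) and *Fabp4* (-8.48), belong to genes with few UMIs in small intestinal gated cells, and fitted values of such genes depend on the prior count. *Igkc* (-4.56), *Jchain* (-2.67) and *Igha* (-2.60) are plasma cell genes, and *Igkc* stood at 273 CPM in the other gated cells of colon 2 and at 4.85 in those of colon 1.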

How the results depend on the processing

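Counts of genes called moved by over 1.5 times under these settings. For Thbd+ against other gated cells (794), the count was 0 with no block for the library, 490 with at least 2 *Thbd* UMIs in place of the level and 300 with cells thinned to 2000 UMIs, and 515 to 663 when a colon library was left out. Against Cd9-high cells (1038) it was 94 with no replicate block and 540 with thinning, and against cells low in both (745) 0 (809 at an unadjusted p under 0.05), 237 with thinning and 355 with 2 *Thbd* UMIs. Leaving out a colon library there left values with no test. Of 20 such values of named genes against Cd9-high cells 15 moved, and of 20 against cells low in both 9 moved. A value had moved when it differed from the full fit by more than the SD of the 2 values. Between intestines (61) it was 508 with the replicate block, 211 with no filter on low counts, 216 with DESeq2, 37 with a *Thbd* minimum of 1000 CPM, 25 with 2 *Thbd* UMIs, 40 without cells with SMC or endothelial markers, 0 with at least 3000 UMIs per cell (776 at an unadjusted p under 0.05) and 30 to 272 when a library was left out. Same-numbered libraries deviated together (r = 0.69 across 10905 genes), but there are only 2 pairs and no sample label pairs them. The file headers do give the same Cell Ranger version to same-numbered libraries, 3.0.2 for replicate 1 and 3.1.0 for replicate 2. For the difference of effects (147) the count was 0 with no replicate block, 243 with no filter, 71 with DESeq2, 23 with 2 *Thbd* UMIs, 69 with thinning and 9 to 173 when a library was left out. The cause of these moves was not tested, except that leaving out libraries leaves fewer samples.

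The share of gated cells that were Thbd+ followed the threshold. In small intestine 1 and 2 and colon 1 and 2 it was 22.8%, 21.5%, 29.2% and 12.1% at 1000 *Thbd* CPM, and 85.0%, 44.4%, 57.5% and 35.8% at 2 UMIs. With 4 gate genes it was 72.3% in small intestine 1, 51.4% in colon 1 and 32.6% in colon 2. Thinning gave 63.7% in small intestine 2, 49.6% in colon 1 and 40.3% in colon 2. At least 3000 UMIs per cell gave 36.9% in small intestine 2 and 26.3% in colon 2, and leaving out doublets gave 51.1% in small intestine 2. Thinning to 1000 UMIs gave *Acta2* in 80.9% and 74.5% and *Wif1* in 9.02% and 10.8% of Thbd+ cells of colon 1 and colon 2, and no thinning gave 96.6% and 89.9% and 36.6% and 22.3%.

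A few genes turned direction. With 2 *Thbd* UMIs the log2 fold change against other gated cells was 0.65 for *Fabp4*, 0.047 for *Rspo3* and 0.18 for *Sfrp4*. The difference of effects was -0.29 for *Tuba1c* and 1.65 for *Il1rl1* with thinning, 0.50 for *Il1rl1* at 1000 *Thbd* CPM and for *Fabp4* it ranged from -12.9 without small intestine 1 to 0.34 without small intestine 2. It was 0.20 for *Jchain* with 4 gate genes. No other value turned among those obtained for 98 genes called against other gated cells, 35 for the difference of effects and 10 in each further comparison. Thinning gave a value for only 66 of the 98 and 29 of the 35. Without the block none of the 98 was called. With 2 libraries per intestine and median depths of 3675 to 9919 UMIs in colonic Thbd+ cells, small differences in low genes were not detectable.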
